A study of Homo sapiens with 132 samples.

Results

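The response of MKN7 cells to 24 h of trastuzumab was analyzed at the mRNA level. MKN7 is a human gastric cancer cell line that was established from a metastatic site. Of the 132 RNA sequencing libraries of the series, 6 belong to this comparison, 3 of cells treated with 5 µg/ml trastuzumab for 24 h and 3 of untreated cells harvested at 24 h. All 6 cultures received fresh medium before the treatment started, and no solvent or control antibody was added to the untreated cells. All genes with sufficient counts were tested, 18483 in all, and libraries with the same replicate number were treated as a pair. The series also holds other lines, agents and times. MKN7 trastuzumab at 4 h, MKN7 trastuzumab + afatinib at 24 h and NCI-N87 trastuzumab at 24 h are used below for comparison. Each has 6 libraries including its controls. MKN7 cells given 0.5 µM afatinib alone are also set against untreated cells, at 4 h and at 24 h.

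Trastuzumab is a humanized IgG1 antibody against the extracellular part of HER2, the receptor tyrosine kinase encoded by ERBB2. HER2 has no known ligand and signals in dimers with EGFR, HER3, HER4 or a further HER2 molecule, mainly through the RAS/MAPK and PI3K/AKT cascades, and the antibody can interfere with ligand-independent dimers and mark cells for immune effector cells through its Fc part. Effector cells and complement of serum are part of its action in patients, so a culture of tumor cells alone shows only the share that runs through the receptor and the tumor cell itself. MKN7 was included in the study as a line that does not respond to trastuzumab but responds to afatinib, a small-molecule inhibitor of EGFR, HER2 and HER4 kinases, whereas NCI-N87 was included as a trastuzumab responder.

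The 6 libraries held between 47991411 and 55017992 counts, of which 98.13 to 98.34% fell on protein-coding genes, and 3 counts corresponded to 0.0545 to 0.0625 CPM, the unit of counts relative to library size. The 10 epithelial marker genes summed to 7050 to 7920 CPM in the untreated and 7270 to 8300 CPM in the treated libraries, with none of them at 0. The 12 leukocyte markers summed to at most 8.45 CPM, with CD68 among those at 0, and the 12 fibroblast and endothelial markers to at most 23 CPM, with THY1 at 0. Libraries with the same replicate number deviated together. Deviations from the group means correlated at r = 0.773 to 0.879 between untreated and treated libraries with the same number. Between libraries with other numbers r was -0.653 to -0.087. Both were taken over 12034 genes, which are not independent replicates. Each group was centered on its own mean, so these values do not set replicate against treatment. Negative values between other numbers follow in part from the centering. The labels do not say what a replicate number stands for. P-values of the main fit rest on the spread over all MKN7 libraries, with both times and the afatinib groups included. Differences between replicate numbers were removed from that spread, and what remains may be technical in part. CPM values of single genes are scaled by TMM normalization, and in bulk RNA fewer cells of a kind and less RNA per cell cannot be told apart.

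In the paired fit trastuzumab changed the mRNA of few MKN7 genes, and by little, although the number depended on the fit. With a shared estimate of the spread over the 24 MKN7 libraries, 62 of 18483 genes (0.335%) passed a false discovery rate of 0.05, 41 of them higher (0.222%) and 21 lower (0.114%). Log2FC of the higher genes ran from 0.21 to 1.62 with a median of 0.33, and of the lower genes from -1.67 to -0.19 with a median of -0.35. Only 3 genes (0.0162%) combined the false discovery rate with an absolute log2FC above 1, namely SPRR1B, NTRK2 and the long intergenic non-coding RNA AC026333.3. The paper, with its own fit and the same thresholds, reports no gene as regulated by trastuzumab. At an unadjusted p below 0.05, 2449 genes (13.3%) were counted. Calibrated p-values would count 924 with no effect. The same fit counted only 211 for trastuzumab + afatinib against afatinib, so 924 is no firm measure of chance here. Among the 12191 genes with a mean level above 1 on the log2 CPM scale, the 95% interval of log2FC lay inside -1 to 1 for 12158 (99.7%).

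**Figure D1:**
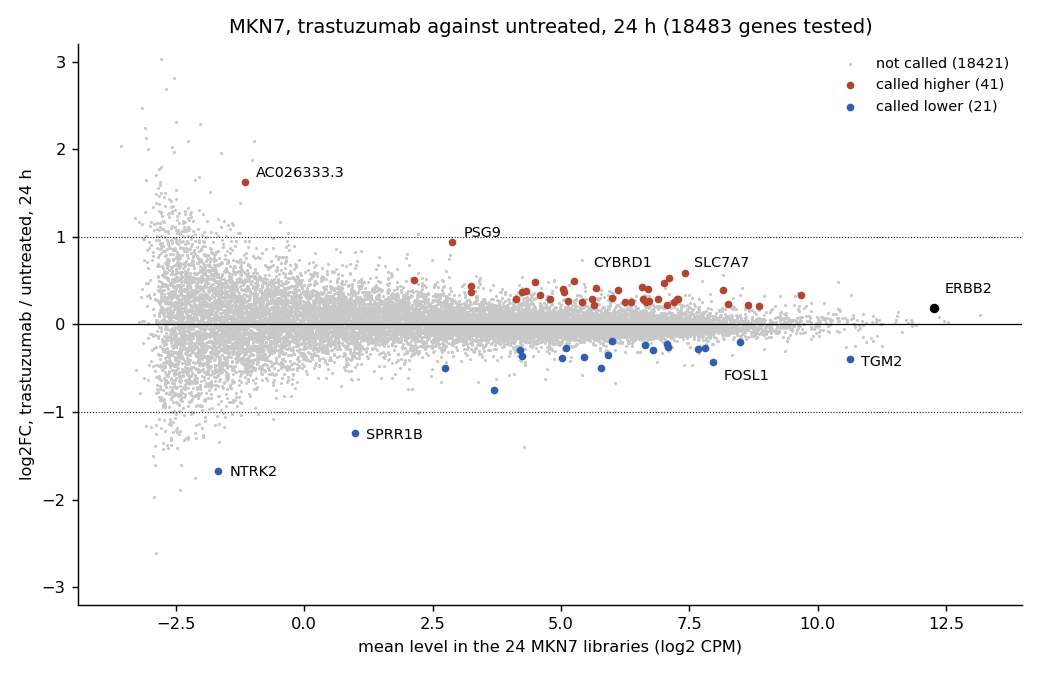
Log2FC of trastuzumab against untreated MKN7 cells at 24 h for each of the 18483 tested genes (y axis), by the mean level over the 24 MKN7 libraries of the fit (x axis, log2 CPM). The 41 genes called higher (red) and 21 called lower (blue) mostly lie close to 0, inside the dotted lines at log2FC 1 and -1, and ERBB2 (black) sits at the right among the genes with the highest counts.

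The calls depended on the pairing and on single replicates. Without the replicate block edgeR called 0 genes (590 at an unadjusted p below 0.05), without replicate 1 and without replicate 2 it also called 0 (1276 and 1728), and without replicate 3 it called 145, of which 43 were among the 62. DESeq2 called 250 genes, 60 of the 62 among them. A fit of the 6 compared libraries alone called 2269 genes (1092 higher, 1177 lower), and a fit without a filter on low counts called 609 of 31952. In every one of the 11 alternative fits each of the 62 genes that could be tested kept its direction. These fits reuse the libraries on which the 62 genes were selected, so a kept direction is no separate support. All 62 moved in the same direction in 3 of 3 pairs, which held in 21.1% of all genes for higher and 22.3% for lower. The paired test selects genes whose pairs agree, so this follows largely from the call. The treated and the untreated libraries did not overlap in only 11 of the 62 (5.89% of all genes).

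ERBB2 itself, which encodes the target of the antibody, was not called. It lies on chromosome 17 (GRCh38, 39687914 to 39730426, plus strand). Its level was 4960, 4834 and 3554 CPM in untreated replicates 1, 2 and 3 and 5517, 5450 and 4222 CPM in the treated ones. Each treated library was above its untreated partner, although the groups overlapped, since replicate 3 was low in both. The log2FC was 0.19 (SE 0.06, 95% interval 0.06 to 0.32, adjusted p = 0.173), and over 11 alternative fits the adjusted p ranged from 0.000112 to 0.999 and passed the threshold in 2. PGAP3, a gene of GPI anchor remodeling, rose from 234, 253 and 201 CPM to 272, 292 and 244 CPM (log2FC 0.23, SE 0.05, adjusted p = 0.0442). PGAP3 lies on the opposite strand and its annotated span (39671122 to 39696797) overlaps the start of ERBB2, and whether counts were made by strand is not given in the sources used here, so reads of the 2 genes may not have been told apart. Of the 13 tested genes of the list of ERBB2 and its neighbors in the 17q12 region, PGAP3 was the only one called, 8 had a log2FC above 0, and the median was 0.10 against -0.004 over all genes tested. GRB7, which encodes an adaptor protein that binds HER2, had a log2FC of 0.10 (SE 0.07, adjusted p = 0.548), and STARD3 one of -0.003 (SE 0.04, adjusted p = 0.987).

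None of the other ERBB receptor genes passed the test. EGFR was at 427, 490 and 582 CPM in the untreated and 377, 436 and 534 CPM in the treated libraries, lower in 3 of 3 pairs (log2FC -0.16, SE 0.08, 95% interval -0.33 to 0.01, adjusted p = 0.412). ERBB3, which encodes the kinase-impaired partner HER3, was at 42.5, 40.3 and 33.4 CPM and at 45.6, 42.4 and 35.6 CPM (log2FC 0.09, SE 0.05, adjusted p = 0.481). ERBB4 had a log2FC of 0.05 (SE 0.12, adjusted p = 0.891). The receptor genes thus stayed within a log2FC of -0.33 to 0.32 by their intervals.

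Of the ligand genes, 9 of the 11 listed were tested, and 0 were called. AREG, which encodes amphiregulin, was lower in 3 of 3 pairs, from 36.2, 24.8 and 58.9 CPM to 33.7, 24.3 and 49.7 CPM (log2FC -0.13, SE 0.06, adjusted p = 0.352). HBEGF, which encodes heparin-binding EGF-like growth factor, was at 69.7, 72.8 and 127 CPM and at 65.3, 62.0 and 89.3 CPM (log2FC -0.30, SE 0.17, adjusted p = 0.439). TGFA had a log2FC of -0.09, EREG of -0.03 and BTC of 0.13, with adjusted p from 0.436 to 0.935. NRG1, NRG2, NRG3 and NRG4, the neuregulin genes, were below 1 CPM in all 6 libraries and had adjusted p from 0.631 to 0.975. Their 95% intervals of log2FC were wide, from -0.76 to 0.20 for NRG4 and from -1.26 to 1.77 for NRG3.

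Among the genes of receptor feedback and turnover, 16 were tested and CBLB was called. CBLB encodes an E3 ubiquitin ligase that takes part in the downregulation of receptor tyrosine kinases. It rose from 20.8, 18.5 and 11.3 CPM to 28.0, 22.7 and 16.4 CPM (log2FC 0.41, SE 0.09, adjusted p = 0.0442). Its relative CBL was at a log2FC of -0.14 (SE 0.08, adjusted p = 0.451), and the median of the list was -0.04. The increase of CBLB was seen in each pair, whereas the list as a whole lay near the median of all genes.

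**Figure D2:**
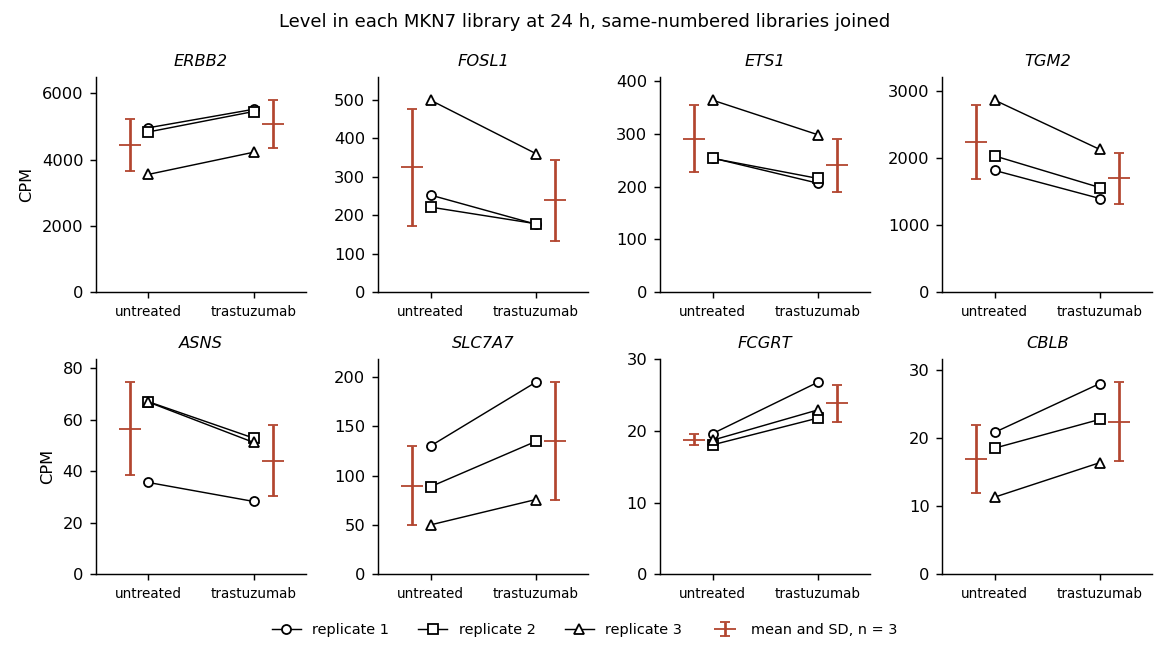
Level in CPM (y axis, starting at 0) of 8 genes in the 6 MKN7 libraries at 24 h, with lines joining untreated and treated libraries of the same replicate number and red bars giving mean and SD (n = 3). In each panel the 3 lines run the same way. Replicate numbers differ widely for some genes, as for FOSL1, where untreated replicate 3 was at 499 CPM and the others at 252 and 221 CPM. They differ little for FCGRT, with untreated libraries at 19.6, 18.1 and 18.7 CPM.

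Transcription factor genes downstream of RAS/MAPK were among the genes that fell. FOSL1 encodes FRA1, a subunit of AP-1 that accumulates when MAPK signaling is active, and lies on chromosome 11 (65892049 to 65900573, minus strand). It was at 252, 221 and 499 CPM in the untreated and 177, 178 and 360.1 CPM in the treated libraries. The treated library was lower in each pair, and the groups overlapped because replicate 3 was high in both. FOSL1 fell by 25.7% (log2FC -0.43, SE 0.07, adjusted p = 0.0331). ETS1, a transcription factor phosphorylated by MAPK and known for a role in invasion, fell from 254, 253 and 364 CPM to 206, 216 and 298 CPM (log2FC -0.27, SE 0.05, adjusted p = 0.0331).

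Of the 23 tested genes of the MAPK output list, FOSL1 was the only one called. A log2FC below 0 was seen in 19 of the 23, and 11 were lower and 1 higher at an unadjusted p below 0.05, a cutoff that 6.44% and 6.81% of all genes passed in these directions. The median log2FC of the list was -0.19 against -0.004 over all genes. DUSP6, a phosphatase of ERK induced by MAPK signaling, was at 4.18, 3.57 and 13.9 CPM and at 2.77, 2.30 and 7.46 CPM (log2FC -0.74, SE 0.22, adjusted p = 0.147). SPRY4, a feedback inhibitor of the same cascade, had a log2FC of -0.66 (SE 0.19, adjusted p = 0.139). PHLDA1 at -0.32 (SE 0.07, adjusted p = 0.0567), EGR1 at -0.58 (SE 0.22, adjusted p = 0.251) and CCND1, which encodes cyclin D1, at -0.19 (SE 0.08, adjusted p = 0.255) also missed the threshold. These 5 genes were lower in each pair without passing the test. In the phosphoprotein measurements of the paper, trastuzumab left MEK1, MAPK3 and the other kinases of MKN7 cells unchanged. All treatment times of that measurement were shorter than 24 h, and a link to the mRNA values was not tested.

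TGM2 encodes transglutaminase 2, which crosslinks proteins of the extracellular matrix. It was at 1813, 2029 and 2859 CPM in the untreated and 1395, 1558 and 2125 CPM in the treated libraries and fell by 24.0% (log2FC -0.40, SE 0.07, adjusted p = 0.0331). MARCH4, which encodes a membrane-bound E3 ubiquitin ligase, had the lowest p of all genes. It lies on chromosome 2 (216257865 to 216372027, minus strand) and fell from 41.7, 49.3 and 65.7 CPM to 30.0, 39.0 and 52.8 CPM (log2FC -0.37, SE 0.05, adjusted p = 0.00110). For both genes every treated library was lower than its partner while the groups overlapped.

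Genes of amino acid synthesis and tRNA charging formed a further group among those that fell. ASNS, asparagine synthetase, was at 35.6, 67.0 and 66.8 CPM in the untreated and 28.3, 52.9 and 51.2 CPM in the treated libraries (log2FC -0.35, SE 0.06, adjusted p = 0.0331). PSAT1, an aminotransferase of serine synthesis, was at 92.3, 124 and 137 CPM and at 69.7, 102 and 119 CPM (log2FC -0.30, SE 0.06, adjusted p = 0.0351). XPOT, which exports tRNA from the nucleus, fell from 128, 156 and 169 CPM to 105, 137 and 147 CPM (log2FC -0.22, SE 0.05, adjusted p = 0.0414). These 3 genes were the called members of the list of ATF4 targets, of which 19 were tested, while 0.114% of all genes were called lower. ATF4 is the transcription factor of the integrated stress response, and its own mRNA had a log2FC of -0.14 (SE 0.05, adjusted p = 0.249). In the list, 12 genes were lower and 0 higher at an unadjusted p below 0.05, which 6.44% and 6.81% of all genes were, and the median was -0.14 against -0.004. MTHFD2, of mitochondrial folate metabolism, at -0.19 (adjusted p = 0.0691), SLC7A11, the cystine transporter, at -0.42 (adjusted p = 0.113) and TRIB3 at -0.21 (adjusted p = 0.126) were among those that were not called.

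Of the aminoacyl-tRNA synthetase genes, YARS for tyrosine and GARS for glycine fell. YARS was at 189, 234 and 249.6 CPM and at 149, 197 and 208 CPM (log2FC -0.28, SE 0.05, adjusted p = 0.0331), and GARS at 321, 409 and 399 CPM and at 274, 357 and 356 CPM (log2FC -0.20, SE 0.04, adjusted p = 0.0414). Of the 20 cytosolic synthetase genes, a list drawn up after these values were seen, 11 were lower and 0 higher at an unadjusted p below 0.05. Over all genes 6.44% and 6.81% were. In the list, 1 gene had a log2FC above 0, and the median was -0.11. SLC1A5, the glutamine transporter ASCT2, fell as well (log2FC -0.26, SE 0.06, adjusted p = 0.0442). POLR3G, a subunit of RNA polymerase III, which transcribes tRNA genes, fell from 18.04, 22.9 and 32.6 CPM to 14.01, 17.8 and 25.5 CPM (log2FC -0.36, SE 0.07, adjusted p = 0.0411).

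The promoters of ASNS, of PSAT1 and of CTSF, a gene that rose and is described below, are shown since ASNS and PSAT1 moved together and CTSF is one of several lysosomal genes that moved the other way. The sequences are RefSeq promoters (GRCh38.p14, 250 bases before to 50 after the gene start), in lower case, with capitals marking the letters TGATGNAA of the ATF4 composite element and CACGTG of the E-box, searched on both strands together with the AP-1 site TGACTCA.
ASNS: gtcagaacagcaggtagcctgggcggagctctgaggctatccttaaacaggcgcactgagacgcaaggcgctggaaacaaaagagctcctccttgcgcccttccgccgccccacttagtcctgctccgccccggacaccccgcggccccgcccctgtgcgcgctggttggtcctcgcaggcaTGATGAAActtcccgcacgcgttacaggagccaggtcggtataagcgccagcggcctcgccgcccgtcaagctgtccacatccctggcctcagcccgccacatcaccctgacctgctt
PSAT1: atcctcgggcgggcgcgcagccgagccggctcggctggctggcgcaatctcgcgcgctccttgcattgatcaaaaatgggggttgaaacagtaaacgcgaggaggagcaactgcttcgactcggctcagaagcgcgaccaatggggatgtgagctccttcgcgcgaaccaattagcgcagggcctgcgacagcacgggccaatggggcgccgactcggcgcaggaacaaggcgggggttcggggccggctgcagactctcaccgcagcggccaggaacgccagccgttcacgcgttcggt
CTSF: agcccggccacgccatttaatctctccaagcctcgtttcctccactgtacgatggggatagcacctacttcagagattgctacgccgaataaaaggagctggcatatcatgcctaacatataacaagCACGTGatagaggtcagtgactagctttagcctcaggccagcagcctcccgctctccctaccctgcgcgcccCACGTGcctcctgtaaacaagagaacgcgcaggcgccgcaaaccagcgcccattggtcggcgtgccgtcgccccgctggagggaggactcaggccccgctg

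The regions are chr7:97872359-97872658 on the minus strand for ASNS, chr9:78296875-78297174 on the plus strand for PSAT1 and chr11:66568557-66568856 on the minus strand for CTSF. The ATF4 composite letters began at position -68 from the ASNS start and were absent from the PSAT1 window, and the E-box letters began at -123 and -51 in CTSF. Of 14 lower genes with a promoter entry, 2 held the ATF4 composite, 1 the AP-1 site and 1 the E-box. Of 33 higher genes with an entry, 1 held the ATF4 composite, 1 the AP-1 site and 3 the E-box. Over the 12102 tested genes with an entry the shares were 2.04%, 3.46% and 9.45%. The motifs were chosen after the values of these genes were known, and a match is a description of the letters only.

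No ribosome biogenesis gene passed the test. Of 30 tested genes, 30 had a log2FC below 0, from -0.21 to -0.02 with a median of -0.14, and 21 were lower at an unadjusted p below 0.05, where 6.44% of all genes were. POLR1B, a subunit of RNA polymerase I, was at 60.1, 63.0 and 75.8 CPM in the untreated and 50.5, 57.5 and 66.5 CPM in the treated libraries (log2FC -0.19, SE 0.05, adjusted p = 0.0889). Proliferation genes were not called either. The median was -0.06 over 40 S phase genes and -0.07 over 51 G2/M genes, and 36 and 50 genes of these lists had no log2FC above 0. HJURP, a chaperone of the centromeric histone CENP-A, had the lowest p of the G2/M list (log2FC -0.13, SE 0.04, adjusted p = 0.138).

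Several of the genes that rose encode transporters or enzymes of the lysosome. SLC17A5 encodes sialin, which exports sialic acid from lysosomes. It was at 139, 127 and 98.8 CPM in the untreated and 163, 152 and 118 CPM in the treated libraries (log2FC 0.25, SE 0.04, adjusted p = 0.0331). SLC29A3, a nucleoside transporter of lysosomes, rose from 20.6, 18.7 and 14.5 CPM to 25, 21.8 and 19.0 CPM (log2FC 0.29, SE 0.06, adjusted p = 0.0351). CTSF, which encodes the protease cathepsin F, rose from 106, 86.1 and 80.8 CPM to 129.9, 105 and 97.6 CPM (log2FC 0.29, SE 0.06, adjusted p = 0.0417). With SIDT2, a lysosomal membrane protein (log2FC 0.27, SE 0.06, adjusted p = 0.0419), 4 of 38 tested lysosomal genes were called higher and 0 lower, where 0.222% and 0.114% of all genes were. This list was also drawn up after the values were seen. Of its members 31 had a log2FC above 0, and the median was 0.09 against -0.004 over all genes.

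Further transporters and a reductase of the plasma membrane were among the genes that rose. SLC7A7, which encodes the light subunit of a transporter of cationic amino acids, was at 130.2, 88.9 and 50.2 CPM in the untreated and 195, 135 and 75.8 CPM in the treated libraries. Although the level differed more than 2 times between the untreated replicates, the ratio was nearly the same in each pair, and SLC7A7 rose by 50.6% (log2FC 0.59, SE 0.11, adjusted p = 0.0331). CYBRD1, a ferric reductase of the intestinal brush border, rose from 92.8, 95.04 and 48.2 CPM to 141, 131 and 68.5 CPM (log2FC 0.53, SE 0.09, adjusted p = 0.0331). SLC1A3, a glutamate transporter, had a log2FC of 0.42 (SE 0.09, adjusted p = 0.0493).

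Of the Fc receptor and complement genes, FCGRT and CD55 rose. FCGRT encodes the heavy chain of the neonatal Fc receptor, which binds IgG in endosomes and returns it to the cell surface. FCGRT was at 19.6, 18.1 and 18.7 CPM in the untreated and 26.8, 21.8 and 22.9 CPM in the treated libraries, so the groups did not overlap (log2FC 0.34, SE 0.06, adjusted p = 0.0351). CD55, an inhibitor of complement on the cell surface, rose from 114, 102 and 98.3 CPM to 156, 127 and 104 CPM (log2FC 0.29, SE 0.06, adjusted p = 0.0352). Of the 10 tested genes of the list these 2 were called higher, where 0.222% of all genes were, 8 had a log2FC above 0, and the median was 0.20 against -0.004 over all genes. Among called genes outside the lists, MYD88, the adaptor of Toll-like receptors, rose by 0.22 on the log2 scale (SE 0.05, adjusted p = 0.0411), and GBP2, a GTPase induced by interferon, by 0.37 (SE 0.08, adjusted p = 0.0419).

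Of the 18 tested genes of the chemokine and inflammatory cytokine list 0 were called, and the median was -0.19. At an unadjusted p below 0.05, 4 were lower and 2 higher, where 6.44% and 6.81% of all genes were. CXCL5, which encodes a chemokine for neutrophils, was at a log2FC of -0.61 (SE 0.15, adjusted p = 0.0766).

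The interferon, MHC class I and cholesterol lists held no called gene, and their medians lay above that of all genes tested. Of 29 interferon-stimulated genes, 8 were higher and 0 lower at an unadjusted p below 0.05, where 6.81% and 6.44% of all genes were. These shares also apply to the MHC class I and cholesterol counts below. The interferon median was 0.11, with STAT2 at 0.21 (SE 0.05, adjusted p = 0.0667). Of 14 MHC class I presentation genes, 8 were higher and 0 lower and the median was 0.15, with HLA-F at 0.38 (SE 0.10, adjusted p = 0.0974), a gene whose reads may be shared with its close relatives. Of 24 cholesterol synthesis genes, 24 had a log2FC above 0, 17 were higher and 0 lower, and the median was 0.15. FDFT1, squalene synthase, was at 73.0, 68.7 and 75.5 CPM and at 90.7, 78.0 and 83.5 CPM (log2FC 0.22, SE 0.05, adjusted p = 0.0664), and HMGCS1, which makes HMG-CoA, at 148, 158 and 131 CPM and at 185, 182 and 158 CPM (log2FC 0.26, SE 0.07, adjusted p = 0.1000).

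Lists of PI3K and FOXO output, cyclin D and CDK inhibitors, fatty acid synthesis, glycolysis, hypoxia, p53 targets, apoptosis, endoplasmic reticulum chaperones, heat shock, NRF2 targets and YAP targets also held 0 called genes, with medians from -0.10 to 0.05.

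**Figure D3:**
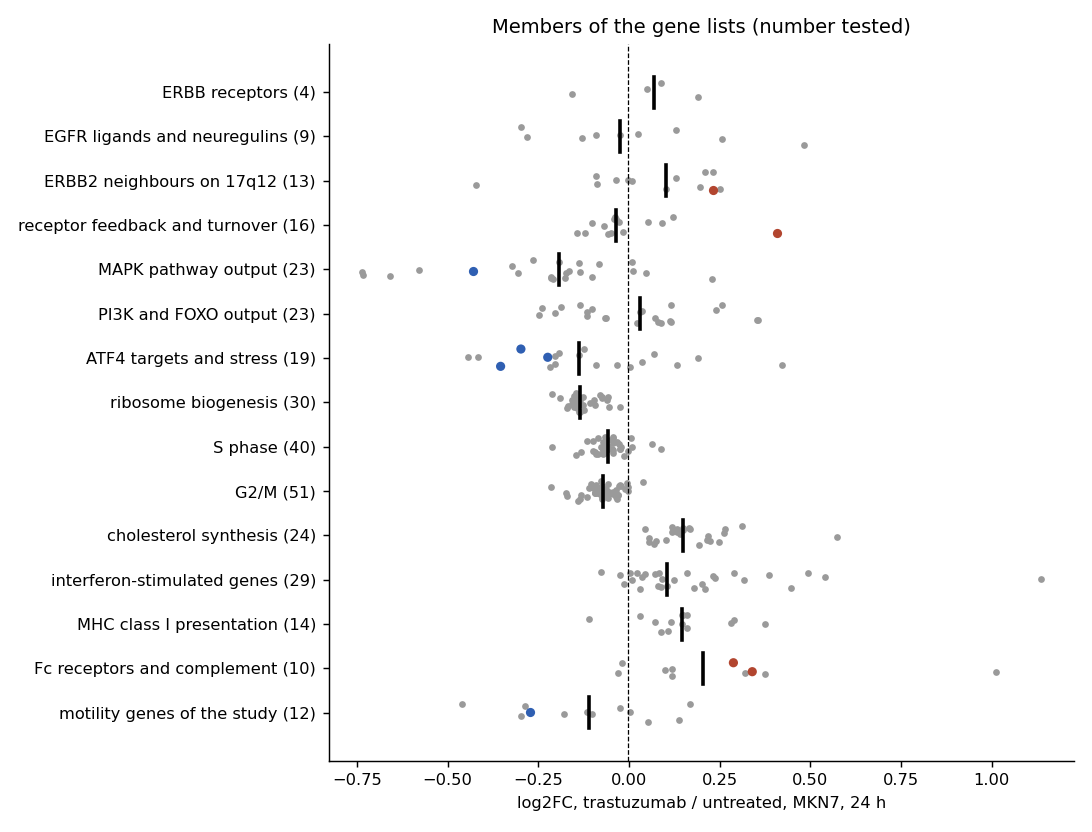
Log2FC at 24 h (x axis) of each tested member of 15 gene lists (y axis, number tested in brackets), with called members in color, the list median as a black bar and the median of all tested genes as a dashed line. Members of cholesterol synthesis lie to the right of the dashed line and those of ribosome biogenesis to its left, while called members occur in 6 lists, at most 3 in each.

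Called genes of the matrix, adhesion and the cytoskeleton are given here as single genes, since none of them is in the adhesion and motility list. Of the 24 tested genes of that list 0 were called, and the median log2FC was -0.13 against -0.004 over all genes. At an unadjusted p below 0.05, 6 were lower and 2 higher, where 6.44% and 6.81% of all genes were. COL4A4, a chain of basement membrane collagen, rose from 45.6, 45.9 and 30.7 CPM to 56.3, 55.7 and 37.5 CPM (log2FC 0.29, SE 0.05, adjusted p = 0.0331). FBN1, fibrillin 1 (0.48, SE 0.10), NTN4, netrin 4 (0.26, SE 0.05), TIMP2, an inhibitor of matrix metalloproteinases (0.21, SE 0.05), CLDN1, a tight junction protein (0.40, SE 0.08), FSCN1, which bundles actin (0.33, SE 0.07), and the kinase gene FYN (0.26, SE 0.05) rose on the log2FC scale with adjusted p from 0.0351 to 0.0496. DKK1, a secreted inhibitor of Wnt signaling, rose from 190.1, 162 and 152 CPM to 268, 212 and 183 CPM (log2FC 0.39, SE 0.08, adjusted p = 0.0351). AFAP1L1, which associates with actin filaments, fell by 0.19 on the log2 scale (SE 0.04, adjusted p = 0.0411).

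The study selected motility genes from the afatinib response of another line, MKN1, and of the 12 tested here ETS1 was the only one called, with a median log2FC of -0.11. ITGA2, the collagen-binding integrin alpha 2, was at 161, 166 and 401 CPM in the untreated and 118, 130 and 272 CPM in the treated libraries (log2FC -0.46, SE 0.14, adjusted p = 0.146). It was lower in each pair without passing the test. For MKN7 cells the paper describes a slight reduction of motility and average speed after trastuzumab, in films shorter than 24 h. It proposes that this effect does not run through gene expression, although its closing comparison lists cell motility as unaffected by trastuzumab. A link between motility and these mRNA values was not tested.

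The remaining genes of the 12 with the lowest p in each direction were ALDH3B1 (0.43, SE 0.08) and PYROXD2 (0.37, SE 0.07), which encode oxidoreductases, YPEL3 (0.37, SE 0.07) and NABP1 (0.26, SE 0.05), which encodes a single-stranded DNA binding protein, among those that rose, with an adjusted p of 0.0351 each. Among those that fell were MYH16 (-0.75, SE 0.15), annotated as a transcribed pseudogene, GPD1L (-0.27, SE 0.05) and PNPT1 (-0.23, SE 0.05), a nuclease of mitochondria, also at 0.0351. The 3 genes with an absolute log2FC above 1 were low in level. SPRR1B, a cornified envelope gene, was at 1.30, 1.67 and 9.55 CPM in the untreated and 0.65, 0.74 and 3.60 CPM in the treated libraries (log2FC -1.25, SE 0.24, adjusted p = 0.0351). NTRK2, which encodes the neurotrophin receptor TrkB, was at 0.29, 0.39 and 0.27 CPM and at 0.063, 0.11 and 0.13 CPM, the first of which is near the level of 3 counts (log2FC -1.67, SE 0.33, adjusted p = 0.0351). AC026333.3 was at 0.17, 0.19 and 0.063 CPM and at 0.57, 0.50 and 0.25 CPM (log2FC 1.62, SE 0.34, adjusted p = 0.0414). Fold changes of these genes rest on few counts.

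The groups did not overlap for FCGRT, NTRK2, AC026333.3, OLR1, CENPT, EPB41L4B, GPRC5B, MECOM, TMC4, PSG9 and FAM49A. OLR1, a scavenger receptor for oxidized LDL, rose from 91.4, 91.0 and 78.2 CPM to 132, 121 and 109 CPM (log2FC 0.47, SE 0.10, adjusted p = 0.0371). PSG9, of the pregnancy-specific glycoproteins, rose from 3.27, 3.34 and 1.17 CPM to 6.19, 5.22 and 3.57 CPM (log2FC 0.94, SE 0.20, adjusted p = 0.0442), and its reads may be shared with other members of this family of near-identical genes. GPRC5B, an orphan receptor, was at 101, 101 and 99.3 CPM in the untreated and 121, 121 and 121 CPM in the treated libraries, the smallest spread of these genes (log2FC 0.27, SE 0.06, adjusted p = 0.0414). EPB41L4B, of the band 4.1 family, and MECOM, a zinc finger transcription factor, fell by 0.50 and 0.38 on the log2 scale (SE 0.10 and 0.08). The other called genes were ALDH1A3, AOX1, PTPRR, NMRK1, STARD13, UPK2, DGKI and CACNG6, which rose by 0.26 to 0.51 on the log2 scale, and GPAT3 and EIF5A2, which fell by 0.50 and 0.29.

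**Figure D4:**
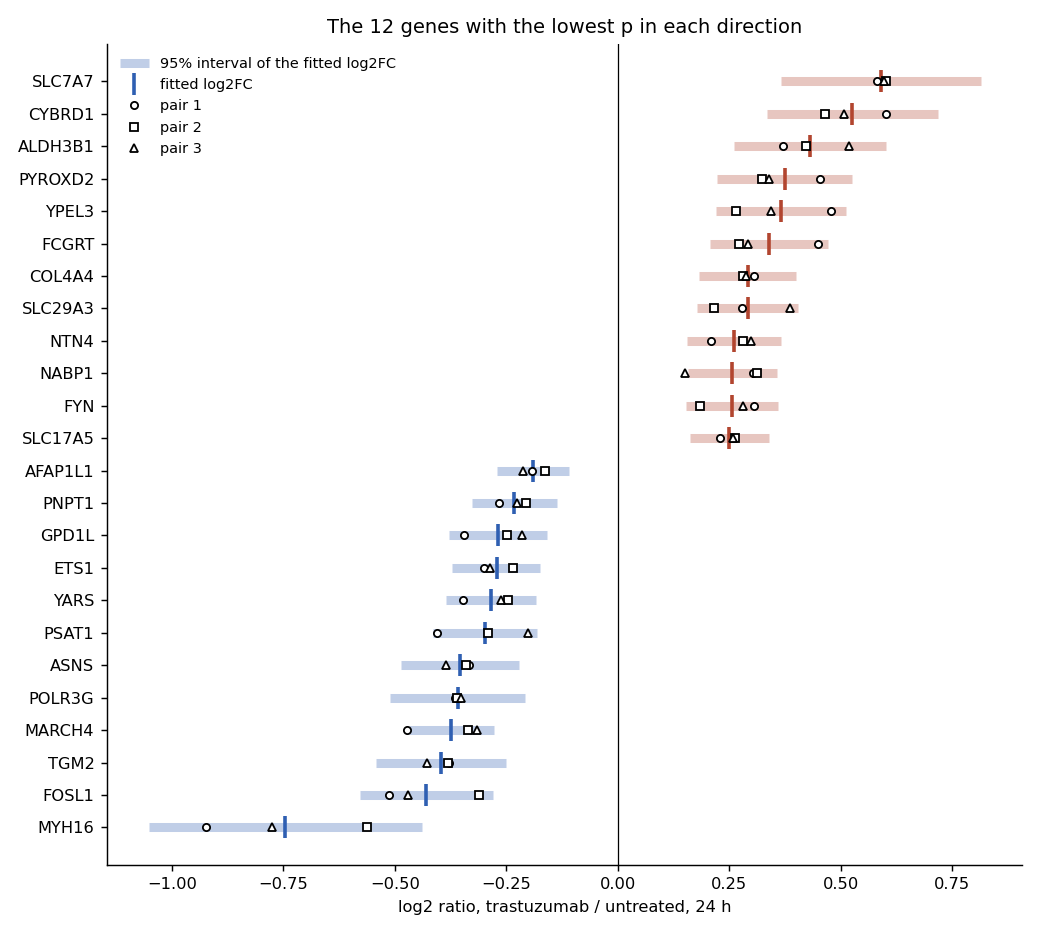
Log2 ratio of trastuzumab to untreated at 24 h (x axis) for the 12 genes with the lowest p in each direction (y axis). Open symbols are the ratios of the 3 pairs, the colored tick is the fitted log2FC and the bar its 95% interval. For every gene the 3 pairs lie on the same side of 0, which was a condition of the choice.

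At 4 h of trastuzumab edgeR called 0 genes in MKN7 cells (0%), with 2487 genes (13.5%) at an unadjusted p below 0.05, and DESeq2 called 5. Leaving out replicate 1 gave 104 calls at 4 h. The 62 genes were already on the same side of 0 at 4 h in 36 of 41 higher and 17 of 21 lower genes, against 56.9% and 61% of all genes with that sign at 24 h. Their median log2FC at 4 h was 0.07 and -0.07. FCGRT was at a log2FC of 0.25 (SE 0.07, adjusted p = 0.269) at 4 h and SLC29A3 at 0.26 (SE 0.06, adjusted p = 0.267), close to their values at 24 h. FOSL1 (-0.07, SE 0.07), ASNS (0.01, SE 0.06), TGM2 (-0.05, SE 0.07) and SLC7A7 (0.04, SE 0.11) were near 0 at 4 h. A test of the difference between the times called 0 genes with edgeR (smallest adjusted p = 0.359, 1357 genes or 7.34% at an unadjusted p below 0.05) and 2 with DESeq2. The main edgeR fit thus showed no gene to respond at 24 h alone. EdgeR without a filter on low counts called 87 genes for this difference, and a fit of the compared libraries alone called 2.

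The same antibody was added to MKN7 cells that also received 0.5 µM afatinib, which gives a comparison with 6 other libraries. Trastuzumab + afatinib against afatinib at 24 h gave 0 called genes with edgeR (0%) and 0 with DESeq2, and 211 genes (1.14%) at an unadjusted p below 0.05. Of the 62 genes, 21 of 41 higher and 7 of 21 lower genes kept their side of 0, where 52.8% and 54.4% of all genes did so, and their medians were 0 and 0.01. FOSL1 was at 0.03 (SE 0.08), TGM2 at 0.06 (SE 0.07), SLC7A7 at -0.03 (SE 0.10) and FCGRT at 0.05 (SE 0.06). The difference between the trastuzumab effects with and without afatinib was called for 0 genes by edgeR (smallest adjusted p = 0.564, 1091 genes or 5.9% at an unadjusted p below 0.05) and for 4 by DESeq2. For FOSL1 that difference was 0.46 (SE 0.11, adjusted p = 0.564), and since the 62 genes were selected on one of the 2 effects compared, their differences are a description.

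Afatinib alone, set against untreated cells, moved far more genes in the same line, with 11780 (63.7%) called at 24 h and 7093 (38.4%) at 4 h. The paper names DMSO as the afatinib solvent, which the untreated cells did not receive. Drug and solvent cannot be told apart in these values. At 4 h, which shares no library with the trastuzumab comparison at 24 h, 36 of the 41 higher genes were above 0 and 29 were called higher, where 17.7% of all genes were, while 2 were called lower. Of the 21 lower genes 19 were below 0 and 14 were called lower, where 20.7% of all genes were. For all genes with the same sign at 24 h the shares on the same side were 66.8% and 64.4%. The genes called after trastuzumab had a median level of 5.995 log2 CPM, against 3.252 over all genes tested. None of these shares was matched for level. Whether genes of a similar level would be called as often after afatinib was not tested. Log2FC after 4 h of afatinib was -2.47 for FOSL1 (SE 0.08), -1.21 for ETS1 (SE 0.05), -0.61 for TGM2 (SE 0.07), 1.37 for CBLB (SE 0.09), 1.05 for SLC29A3 (SE 0.06) and 0.07 for ASNS (SE 0.06). At 24 h both drugs have the untreated libraries in common, and their values are given side by side only. FOSL1 was at -2.70 after afatinib and -0.43 after trastuzumab, TGM2 at -4.36 and -0.40, MARCH4 at -2.63 and -0.37, SLC7A7 at 2.21 and 0.59, and ERBB2 at 0.60 and 0.19. FCGRT was at 0.93 after afatinib and 0.34 after trastuzumab, and CD55 at 1.33 and 0.29. After 4 h of afatinib FCGRT was at 0.09 (SE 0.07) and CD55 at 0.61 (SE 0.06).

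**Figure D5:**
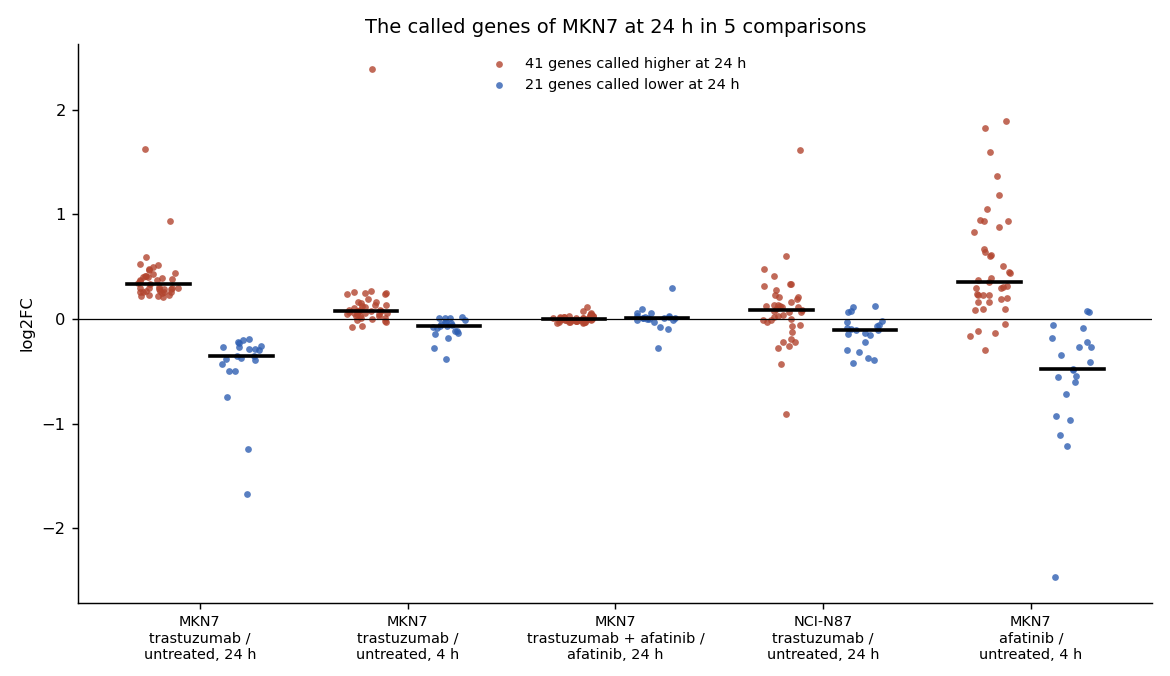
Log2FC (y axis) of the 41 genes called higher (red) and 21 called lower (blue) in MKN7 cells after 24 h of trastuzumab, in that comparison and in 4 comparisons that share no library with it (x axis), with medians as black bars. The medians were 0.33 and -0.35 in the selecting comparison, 0.07 and -0.07 at 4 h, 0 and 0.01 with afatinib present, 0.09 and -0.11 in NCI-N87 and 0.35 and -0.48 after 4 h of afatinib.

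In NCI-N87 cells 24 h of trastuzumab called 8 of 19078 genes (0.0419%), 4 in each direction, and none of the 62 was among them. Of the 62, 27 of 41 higher and 17 of 21 lower genes were on the same side of 0, against 63.3% and 65.9% of all genes, with medians of 0.09 and -0.11. FOSL1 (-0.37, SE 0.13, adjusted p = 0.234), TGM2 (-0.42, SE 0.15, adjusted p = 0.230) and FCGRT (0.47, SE 0.18, adjusted p = 0.267) had a log2FC of similar size in both lines, without a call in NCI-N87. ASNS was at 0.07 (SE 0.11) in NCI-N87 and -0.35 in MKN7, and the difference was not called (-0.43, SE 0.14, adjusted p = 0.651).

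A test of the difference between the 2 lines called 14 of 20739 genes (0.0675%), 4 of them among the 62. SLC17A5 was at 0.25 in MKN7 and -0.13 in NCI-N87 (difference 0.37, SE 0.07, adjusted p = 0.0337), CD109, a GPI-anchored surface protein, at 0.22 and -0.22 (0.43, SE 0.08, adjusted p = 0.0300) and FSCN1 at 0.33 and -0.22 (0.55, SE 0.11, adjusted p = 0.0337). AC026333.3 was at 1.62 and -0.90 (2.52, SE 0.51, adjusted p = 0.0424). The 4 genes were selected for their rise in MKN7, which enters this difference. Without the replicate block, with library size scaling, and without replicate 1 or replicate 3 the difference between the lines was called for 0 genes, and without replicate 2 for 1 gene.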

How the data were processed

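The authors prepared directional libraries from poly(A) RNA and sequenced them paired end, and they deposited raw counts per Ensembl gene for each library. Per the labels, the processing used Trim Galore, STAR and genome build hg38. The counting tool, its strand setting and the annotation release are not given in the sources used here. Gene names and positions were taken from GENCODE release 29 (GRCh38), and 0.0566% of the counts in the 6 libraries fell on identifiers absent from it.

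The quasi-likelihood functions of edgeR 4.0.16 (R 4.3.3) were applied to these counts after TMM scaling. Genes were kept by filterByExpr at a count of 10 (15 in sum). A single model covered the 24 MKN7 libraries, with a mean for each group and, as a block, the replicate number within each time. NCI-N87 libraries were fitted likewise, and the difference between the lines was tested over all 48. Genes with a Benjamini-Hochberg adjusted p below 0.05 were called. Replicate numbers come from the sample titles, and all 3 pairs deviated together. Replicates differed by 27.6 to 75.9 times the Poisson expectation. The functions were tested on simulated data. DESeq2 1.42.0, other scaling, filters, blocks and sets of libraries were alternatives. A fit of the 24 h libraries alone and a block shared by both times were chosen after seeing the data.

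The members and gene lists were chosen with earlier results of these data known. Named genes are the ERBB receptors and ligands, the 12 genes with the lowest p in each direction (mean log2 CPM above 1 and the same direction in 3 pairs), and called list members or the member with the lowest p. Other genes named were chosen after their values were seen.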

Additional observations from a re-analysis of the deposited data

Results flagged for a closer look

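For 5 genes the response to 24 h of trastuzumab differed between MKN7 and NCI-N87 by the test of the difference itself (edgeR, adjusted over 20739 genes), which called 14 genes in all. The difference in log2FC, MKN7 minus NCI-N87, was 0.372 for SLC17A5 (SE 0.07, adjusted p = 0.0337), 0.433 for CD109 (SE 0.08, adjusted p = 0.0300), 0.547 for FSCN1 (SE 0.11, adjusted p = 0.0337) and 2.524 for AC026333.3 (SE 0.51, adjusted p = 0.0424). For FN1, which encodes fibronectin and was not called within either line, it was 0.395 (SE 0.08, adjusted p = 0.0486), with a log2FC of 0.18 in MKN7 and -0.22 in NCI-N87. The first 4 were selected for their rise in MKN7, which enters the difference. The test called 0 genes without the replicate block, with library size alone and without replicate 1 or replicate 3.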

How the results depend on the processing

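All 62 called genes kept their direction in every alternative in which they were tested, and their calls were kept in 330 and lost in 349 of the fits by gene, while 0 reversed. Since the alternatives reuse the libraries on which the genes were selected, a kept direction is no separate support. Of the 62 calls (41 higher, 21 lower, 3 with an absolute log2FC above 1), the fit without the replicate block left 0, DESeq2 gave 250 (175, 75 and 1), library size alone 40 (23, 17 and 3), no filter 609 (357, 252 and 12), at least 10 counts in every library 83 (61, 22 and 0) and only the groups compared 2269 (1092, 1177 and 23). Leaving out 1 replicate gave 0 to 145 calls (0 to 111 higher, 0 to 34 lower, 0 to 1 above the fold limit), with 0 without replicate 1 or 2 and 145 without replicate 3. Only the 12 libraries of 24 h gave 4 (3, 1 and 0), and a replicate block shared by both times gave 0. The cause was not tested.

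For trastuzumab at 4 h, where 0 genes were called, DESeq2 gave 5, no filter 523 and leaving out 1 replicate 0 to 104. For trastuzumab + afatinib against afatinib, with 0 called, no filter gave 1 and only the groups compared 3. For NCI-N87, with 8 called, the fit without the replicate block gave 0, DESeq2 156, no filter 470, only the groups compared 2 and leaving out 1 replicate 0 to 6. For the difference between 24 h and 4 h, with 0 called, DESeq2 gave 2, no filter 87 and only the groups compared 2. For the difference between the lines, with 14 called, 0 remained without the replicate block or with library size alone, and no filter gave 64, at least 10 counts in every library 7, only the groups compared 6 and leaving out 1 replicate 0 to 1. For the difference with and without afatinib, with 0 called, DESeq2 gave 4, no filter 157 and leaving out 1 replicate 0 to 5. For genes near the level of 3 counts, such as NTRK2 and AC026333.3, depth limits the precision of the fold change.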
